A study of Mus musculus with 12 samples.

Results

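Hepatic stellate cells were followed through 10 of their marker genes (Lrat, Lhx2, Dcn, Ecm1, Reln, Colec11, Hgf, Pdgfrb, Ngfr and Des) in bulk RNA sequencing of mouse liver. The genes were taken by symbol from the deposited table of 54532 genes, and all 10 were found. There were 6 libraries from Apoe knockout mice injected with Rspo2-AAV and 6 from Apoe knockout mice injected with the control virus, Gfp-AAV. AAV, adeno-associated virus, is a gene delivery vector. Every mouse lacked Apoe, and no mouse with an intact Apoe gene or without a virus was compared. The labels used here give no age, sex, dose, promoter of the vector or time after injection. Nothing in them ties each library to its own animal. The p-values thus reflect variation among these libraries, which may be technical. The series title places the study in hepatic steatosis, and its question for stellate cells is not stated.

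Stellate cells lie between the sinusoidal endothelium and the hepatocytes, wrap the sinusoids and store vitamin A as retinyl esters in lipid droplets. After injury they can turn into myofibroblasts that deposit collagen. The virus carries Rspo2, whose secreted product R-spondin 2 amplifies Wnt signals by clearing the ligases Znrf3 and Rnf43 from the cell surface. In bulk liver RNA, fewer stellate cells and less RNA per stellate cell cannot be told apart.

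Expression is given in FPKM, which divides each count by the length of the gene and the size of the library, so that levels can be compared between genes. Reads recovered from the FPKM numbered 14295644 to 22195576 per library. Rspo2 was at 49.9 to 573 FPKM in the Rspo2-AAV libraries and had 0 reads in the control libraries. Some libraries stood apart. Xist was at 28.0 and 5.57 FPKM in Rspo2-AAV 1 and 2 and at 42.0 FPKM in control 3, and under 1 FPKM in the other 9. The share of reads on 13 pancreatic acinar genes was 6.72% for Rspo2-AAV 4, 0.606% for Rspo2-AAV 5, 0.0694% for Rspo2-AAV 6 and at most 0.00717% elsewhere. Scd1, a fatty acid desaturase gene, split both groups by library number (340 and 541 FPKM in Rspo2-AAV 1 and 2, 331 to 479 FPKM in controls 1 to 3, and at least 2457 FPKM in every library numbered 4 to 7). Values within these sets are given below for the 10 markers and for a few other genes. Most other genes are given over all 12 libraries only, and some of them also differed between the sets.

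All 10 stellate cell markers had a lower mean in Rspo2-AAV livers than in control livers, and 5 of them passed the test (Lrat, Ngfr, Colec11, Dcn and Lhx2). None was called higher. Values were tested with limma as log2(FPKM + 0.5), in 13447 genes averaging 0.5 FPKM or more, and a call means a Benjamini-Hochberg adjusted p under 0.05. Of all tested genes, 5.2% were called in either direction and 2.65% were called lower. The same 5 markers were the ones whose groups did not overlap, with every Rspo2-AAV value below every control value, which held for 1.62% of tested genes. The unadjusted p was under 0.05 for all 10 markers, against 11.2% of tested genes that were lower at that level. The median log2 change was -0.74 over the 10 markers and 0.00252 over all tested genes. The number of markers called was 8 among libraries numbered 4 to 7, 7 among the 9 libraries without Xist and 3 without Rspo2-AAV 4 and 5. The calls over the whole table moved too. In the same order, 931, 908 and 120 of the 13447 tested genes were called lower, against 356 in the main fit. Numbers 1 to 3 alone, which hold 3 controls and 2 Rspo2-AAV libraries, gave 0 calls among the markers and 0 among all tested genes. In that set 3 of the 10 markers had an unadjusted p under 0.05 and all 10 changes were negative.

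**Figure D1:**
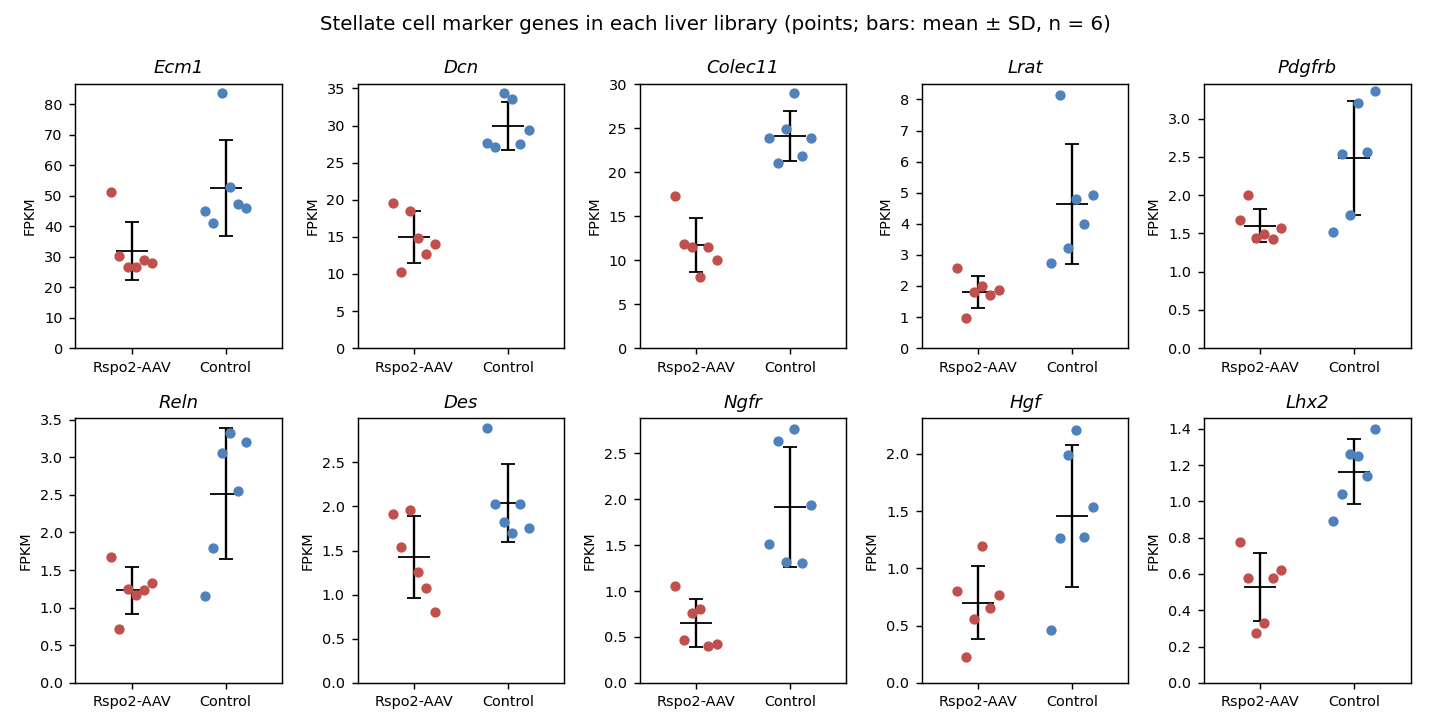
FPKM (y axes, linear, starting at 0) of the 10 marker genes in each library, 6 Rspo2-AAV on the left and 6 Control on the right of each panel; points are libraries in order of their number, and bars are the mean and SD. For Dcn, Colec11, Lrat, Ngfr and Lhx2, every Rspo2-AAV point lies below every Control point.

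The gene for vitamin A storage fell. Lrat, lecithin-retinol acyltransferase, makes the retinyl esters that fill stellate cell droplets (ENSMUSG00000028003, GRCm38 chromosome 3, 82892579 to 82903973, minus strand, protein coding). It was at 0.973 FPKM in the lowest Rspo2-AAV library, with a median of 1.83 and a highest value of 2.57, against 2.73, 4.40 and 8.15 FPKM in the controls. The highest Rspo2-AAV library lay just under the lowest control, and control 2 was far above the other controls. The means were 1.81 ± 0.515 FPKM in Rspo2-AAV and 4.64 ± 1.92 FPKM in control livers (SD, n = 6 per group). The log2 change was -1.11 ± 0.23 (SE; limma, adjusted p = 0.0151). Without Rspo2-AAV 4 and 5, the libraries with the most acinar reads, the log2 change was -1.15 and the adjusted p was 0.0659.

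The gene for a transcription factor of stellate cells fell as well. Lhx2 is a LIM homeobox factor that in mice is needed to keep stellate cells quiescent (ENSMUSG00000000247, chromosome 2, 38339281 to 38369733, plus strand). It was the least abundant of the 10, with 20 to 118 reads per library. Its values were 0.276, 0.578 and 0.776 FPKM (lowest, median and highest) in Rspo2-AAV livers, against 0.893, 1.19 and 1.40 FPKM in control livers, and the groups did not overlap. The means were 0.527 ± 0.189 and 1.16 ± 0.180 FPKM (SD, n = 6 per group), with a log2 change of -0.71 ± 0.14 (limma, adjusted p = 0.0146). Without Rspo2-AAV 4 and 5, which held the 2 lowest values, the log2 change was -0.54 and the adjusted p was 0.0636.

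Of the genes for secreted products, Dcn and Colec11 fell by about as much as each other. Dcn encodes decorin, a small proteoglycan that binds collagen fibrils and TGF-beta (ENSMUSG00000019929, chromosome 10, 97479609 to 97518143, plus strand). Its values were 10.3, 14.4 and 19.6 FPKM in Rspo2-AAV livers (lowest, median, highest), against 27.1, 28.6 and 34.4 FPKM in control livers. The means were 15.0 ± 3.52 and 30.0 ± 3.24 FPKM (SD, n = 6 per group), with a log2 change of -1.0025 ± 0.15 (limma, adjusted p = 0.00304). The gap between the groups was wider than the range within the control group. Colec11 encodes a collectin that recognises sugars and activates the lectin pathway of complement (ENSMUSG00000036655, chromosome 12, 28594173 to 28623377, minus strand). It stood at 8.07, 11.5 and 17.3 FPKM in Rspo2-AAV livers and at 21.1, 23.85 and 29.0 FPKM in control livers, again with no overlap. The means were 11.7 ± 3.07 and 24.1 ± 2.81 FPKM (SD, n = 6 per group), with a log2 change of -1.04 ± 0.15 (limma, adjusted p = 0.00304). Both genes were also called with TPM scaling, on recovered reads with limma-voom, without any 1 library, and with a term for the library numbers.

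Ecm1 and Reln were lower in the mean but just missed the threshold. Ecm1, extracellular matrix protein 1, restrains the activation of latent TGF-beta in mouse liver, and it was the most abundant of the 10 (ENSMUSG00000028108, chromosome 3, 95734147 to 95739569, minus strand). Its values were 26.8, 28.4 and 51.3 FPKM in Rspo2-AAV livers (lowest, median, highest), against 41.0, 46.7 and 83.8 FPKM in control livers. The overlap came from Rspo2-AAV 1, at 51.3 FPKM, since the other 5 Rspo2-AAV libraries lay below every control. The log2 change was -0.71 ± 0.20 (limma, adjusted p = 0.0542). It was -0.85 without Rspo2-AAV 1 (adjusted p = 0.0124) and -0.74 among the 9 libraries without Xist (adjusted p = 0.00107). Ecm1 was called lower under 4 of the 25 alternatives. Its change was -0.57 without control 3 (adjusted p = 0.0606) and -0.67 without Rspo2-AAV 5 (adjusted p = 0.12). It was -0.61 without the libraries with the most acinar reads (adjusted p = 0.212) and -0.45 among numbers 1 to 3 (adjusted p = 0.849).

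Reln encodes reelin, a large secreted glycoprotein that signals through Vldlr and Lrp8 (ENSMUSG00000042453, chromosome 5, 21884454 to 22344702, minus strand). It was at 0.716, 1.24 and 1.68 FPKM in Rspo2-AAV livers and at 1.16, 2.80 and 3.33 FPKM in control livers. Controls 1 and 2 were the 2 lowest controls and control 1 lay inside the Rspo2-AAV range. The log2 change was -0.76 ± 0.21 (limma, adjusted p = 0.0539). It was -0.92 without control 1 (adjusted p = 0.0118), -0.83 without Rspo2-AAV 1 (adjusted p = 0.0455) and -1.01 among numbers 4 to 7 (adjusted p = 0.00295). It was -0.66 without Rspo2-AAV 2 (adjusted p = 0.0743), -0.69 without control 6 (adjusted p = 0.12) and -0.55 among numbers 1 to 3 (adjusted p = 0.817).

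Among growth factors and receptors, Ngfr fell and Hgf and Pdgfrb were not called. Ngfr, the p75 neurotrophin receptor, marks stellate cells nearer the portal side of the mouse lobule (ENSMUSG00000000120, chromosome 11, 95568818 to 95587735, minus strand). Its values were 0.399, 0.615 and 1.06 FPKM in Rspo2-AAV livers (lowest, median, highest), against 1.31, 1.72 and 2.76 FPKM in control livers. No Rspo2-AAV value reached the lowest control. The means were 0.652 ± 0.263 and 1.91 ± 0.653 FPKM (SD, n = 6 per group), and the log2 change was -1.05 ± 0.20 (limma, adjusted p = 0.00913). As a ratio of mean FPKM, Rspo2-AAV over control, Ngfr had the lowest of the 10 (0.341), followed by Lrat (0.391) and Lhx2 (0.453). At these low levels the log2(FPKM + 0.5) scale understates the change.

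Hgf, hepatocyte growth factor, is a mitogen that non-parenchymal cells supply to hepatocytes (ENSMUSG00000028864, chromosome 5, 16553495 to 16620152, plus strand). It was at 0.226, 0.707 and 1.1985 FPKM in Rspo2-AAV livers and at 0.462, 1.40 and 2.21 FPKM in control livers. The groups overlapped because control 1 had only 0.462 FPKM (44 reads). The log2 change was -0.68 ± 0.25 (limma, adjusted p = 0.141), and it was -0.87 without control 1 (adjusted p = 0.0328). Other sets gave smaller values, with -0.46 among the 9 libraries without Xist (adjusted p = 0.309), -0.54 without Rspo2-AAV 2 (adjusted p = 0.196) and -0.57 without control 4 (adjusted p = 0.268). Pdgfrb, the PDGF receptor of pericytes and fibroblasts (ENSMUSG00000024620), was at 1.43, 1.53 and 2.00 FPKM in Rspo2-AAV livers and at 1.51, 2.55 and 3.36 FPKM in control livers. The Rspo2-AAV values were tightly grouped, and controls 1 and 3 lay among them. The log2 change was -0.47 ± 0.16 (limma, adjusted p = 0.11). It was -0.58 without control 1 (adjusted p = 0.0359) and -0.39 without control 6 (adjusted p = 0.215), the highest control. The estimate for Pdgfrb differed most between the number sets, at -0.83 among numbers 4 to 7 (adjusted p = 0.00529) and -0.04 among numbers 1 to 3 (adjusted p = 0.988).

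The desmin gene had the smallest change of the 10. Des encodes an intermediate filament protein of stellate cells that muscle cells make too (ENSMUSG00000026208, chromosome 1, 75360329 to 75368579, plus strand). Its values were 0.802, 1.40 and 1.96 FPKM in Rspo2-AAV livers, against 1.70, 1.93 and 2.89 FPKM in control livers, with 2 Rspo2-AAV libraries inside the control range. The log2 change was -0.42 ± 0.17 (limma, adjusted p = 0.172), and it was called under none of the 25 alternatives. Smooth muscle genes, which share a cell source with Des, gave 0 higher and 0 lower of 3 tested by limma, and the most abundant were Mylk (log2 change -0.07) and Smtn (-0.10). In sum FPKM the 6 smooth muscle genes were at 10.3 to 14.8 in Rspo2-AAV and 8.31 to 15.6 in control livers, and Mylk alone averaged 9.08 and 9.62. The other genes of the list had higher means in Rspo2-AAV livers. Myh11 was at 0.731 and 0.407 FPKM (log2 change 0.42 ± 0.17, limma, adjusted p = 0.172). Below the minimum mean, Actg2 was at 0.334 and 0.124 FPKM, Cnn1 at 0.1435 and 0.0526 and Lmod1 at 0.213 and 0.143. These genes are named after their values were seen.

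**Figure D2:**
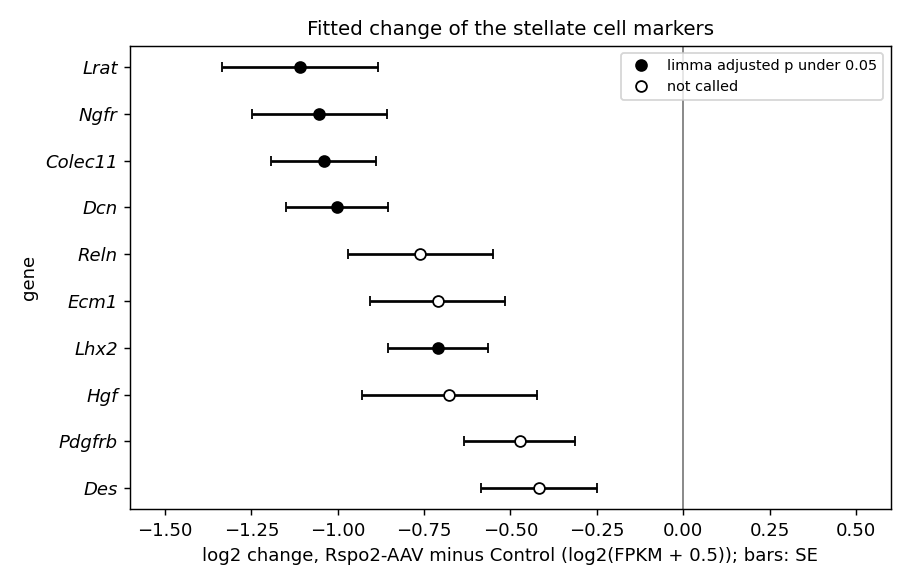
Log2 change with its SE (x axis, Rspo2-AAV minus Control on the log2(FPKM + 0.5) scale) for each marker gene (y axis), filled where the limma adjusted p was under 0.05. All 10 points lie left of 0, from -1.11 for Lrat to -0.42 for Des, and 5 are filled.

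Libraries differed in how far they moved. The median of the 10 deviations from the control mean, on the log2(FPKM + 0.5) scale, was -0.44 for library 1 of the Rspo2-AAV group, -1.12 for library 2, and between -0.90 and -0.77 for libraries 4 to 7. Rspo2-AAV 1, with 122 FPKM of Rspo2, was the highest of its group for 7 of the 10 genes. Rspo2-AAV 2, which had the least Rspo2 (49.9 FPKM), was the lowest of its group for 4 of them (Lrat, Reln, Hgf and Dcn). Rspo2 was at 265 to 573 FPKM in libraries 4 to 7. A relation between the Rspo2 level and the markers was not tested. Among controls the same median ran from -0.23 in control 1, the lowest of its group for 5 genes, to 0.22 in control 4, the highest for 4. Control 1 was below the control mean for 9 of the 10 genes, all but Des. In Rspo2-AAV 1, 5 of the 10 genes lay below the lowest control, and in the other 5 Rspo2-AAV libraries 7 to 9 did.

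**Figure D3:**
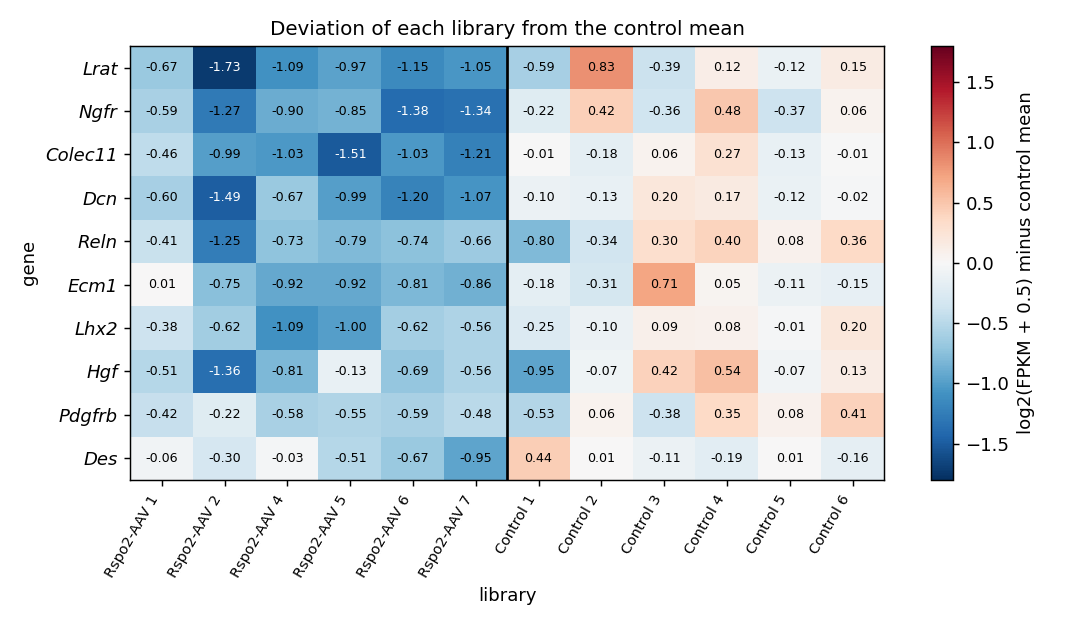
Deviation of each library (columns, Rspo2-AAV left of the line, Control right) from the control mean on the log2(FPKM + 0.5) scale for each marker gene (rows); blue is lower and red is higher. The Rspo2-AAV side is blue except for Ecm1 in Rspo2-AAV 1 (0.01), and control 1 is below the control mean for every gene but Des (0.44), from -0.95 for Hgf to -0.01 for Colec11.

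The estimates of the change are set side by side here for the number sets, and their difference was not tested. Among numbers 1 to 3 the SE ran from 0.20 for Lhx2 to 0.54 for Lrat, so gaps between the sets are imprecise. In that set both Rspo2-AAV libraries had Xist, as did control 3 but not controls 1 and 2. On the log2 scale, Lrat was at -1.12 among numbers 4 to 7 and -1.15 among numbers 1 to 3. Dcn was at -0.99 and -1.03 and Hgf at -0.75 and -0.73, so the estimates of these 3 were close. Ngfr was at -1.17 among numbers 4 to 7 and -0.87 among numbers 1 to 3, and Des at -0.43 and -0.29. The other 5 had larger gaps. Colec11 was at -1.24 among numbers 4 to 7 and -0.68 among numbers 1 to 3, Lhx2 at -0.90 and -0.41, and Ecm1 at -0.81 and -0.45, beside the values of Reln and Pdgfrb given above. Among numbers 1 to 3 the limma adjusted p of the 10 lay between 0.603 and 0.988.

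With the group means removed, Pearson's r between 2 markers over the 12 libraries was positive for 35 of 45 pairs, with a median of 0.32. It was highest for Reln with Hgf (0.84) and for Lrat with Ngfr (0.72) and lowest for Des with Hgf (-0.54). These values describe 12 libraries that share their scaling and carry no test. The 5 genes outside the list whose deviations were most like the mean standardised deviation of the 10 were Rtn4, Fkbp9, Bgn, Lpcat1 and St3gal2, with r of 0.95, 0.94, 0.94, 0.93 and 0.93 over 12 libraries. They are the top of all tested genes and so high by selection. The mean standardised deviation was furthest from the group mean in Rspo2-AAV 1 (0.386) and control 1 (-0.269). It lay between -0.154 and 0.207 in the other libraries. How far these r values rest on Rspo2-AAV 1 and control 1 was not tested. Bgn encodes biglycan, a proteoglycan related to decorin, and of the 5 it alone was called between the groups, as given next.

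Other genes that mark stellate cells in mouse liver were called in part. Of 23 tested genes of a list without the 10 markers, 7 were called lower and 0 higher, with a median log2 change of -0.59. The list's count was 17 among numbers 4 to 7, 3 without Rspo2-AAV 4 and 5, 3 with TPM scaling, and 4 without any one of control 4, Rspo2-AAV 4, Rspo2-AAV 5 or Rspo2-AAV 6. Over all 13447 tested genes, 356 (2.65%) were called lower in the main fit. That number was 931 among numbers 4 to 7, 120 without Rspo2-AAV 4 and 5 and 183 with TPM scaling. Without any one of the libraries just named it was 170 to 244. Fgfr2, a fibroblast growth factor receptor, was at 1.11 ± 0.210 FPKM in Rspo2-AAV and 3.43 ± 0.992 FPKM in control livers (SD, n = 6 per group; log2 change -1.26 ± 0.16, limma, adjusted p = 0.00156). Prelp, a leucine-rich matrix protein, fell by 1.23 ± 0.18 on the log2 scale (adjusted p = 0.00304), Bgn by 1.03 ± 0.20 (0.0128) and Sod3, extracellular superoxide dismutase, by 0.98 ± 0.15 (0.0039). The change of Bgn ran from -1.38 to -0.49 over the main fit and the alternatives. Nes and Adra1b had positive changes (0.11 and 0.19, adjusted p = 0.776 and 0.781). Gata4, a transcription factor of stellate and endothelial cells, was at 7.18 and 7.15 FPKM (log2 change -0.02 ± 0.20, adjusted p = 0.964). These 3 genes are named after their values were seen.

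Lists of stellate cell genes from the central vein and the portal sides of the lobule were both short, and the difference between them was not tested. Of 5 tested central-vein genes, 2 were called lower and 0 higher (median log2 change -0.72), and 4 were lower without control 3. Adamtsl2, a secreted ADAMTS-like protein, was at 1.09 ± 0.355 and 2.09 ± 0.291 FPKM in Rspo2-AAV and control livers (SD, n = 6 per group; log2 change -0.72 ± 0.15, limma, adjusted p = 0.0149). Rspo3, the R-spondin of the normal liver, which stellate cells and central vein endothelium make, fell by 0.94 ± 0.15 on the log2 scale (adjusted p = 0.00455). The groups did not overlap for either gene. Adamtsl2 was at -1.04 among numbers 4 to 7 (adjusted p = 0.00297) and at -0.21 among numbers 1 to 3 (adjusted p = 0.833). The other 3 central-vein genes, Spon2, Podn and Loxl1, did not pass (adjusted p = 0.0766, 0.052 and 0.148). Spon2 ran from -1.62 to -0.44 over the main fit and the alternatives. Of 3 tested portal genes beside Ngfr, 0 were higher and 0 lower by limma, and 1 was lower without Rspo2-AAV 1. The most abundant were Igfbp3 (log2 change -0.46 ± 0.30, adjusted p = 0.405) and Itgb3 (0.03 ± 0.39, adjusted p = 0.971). Ngfr, given above as a marker nearer the portal side, was called lower (log2 change -1.05 ± 0.20, limma, adjusted p = 0.00913) without overlap. Igfbp3 was called lower among numbers 4 to 7 (-0.91, adjusted p = 0.00328) and was at 0.38 among numbers 1 to 3 (adjusted p = 0.893). The third portal gene, Il34, a cytokine for macrophages, was at -0.46 ± 0.13 (adjusted p = 0.0529) and is named after its values were seen, as are the 3 central-vein genes that did not pass.

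Of 15 tested myofibroblast and activation genes, 2 were called lower and 0 higher, against 2.65% of all tested genes called lower. Their median log2 change was -0.47, and 11 of the 15 changes were negative. The count called lower ran from 0 to 3 when 1 library was left out. Acta2, smooth muscle actin, was at 2.78 and 2.46 FPKM in Rspo2-AAV and control livers (log2 change 0.22 ± 0.30, adjusted p = 0.716). Over the main fit and the alternatives its change ran from -0.27 to 0.67. Col1a1 was at 2.21 and 3.91 FPKM (-0.62 ± 0.27, adjusted p = 0.213). Col1a1, Col1a2, Col3a1, Col5a1 and Timp1 were not called in the main fit, but each was called lower under 1 to 4 of the alternatives. Acta2, these collagen genes and Timp1 are named after their values were seen. The 2 called genes were Lum (lumican, -0.91 ± 0.22, limma, adjusted p = 0.033) and Pdgfra (-0.53 ± 0.13, adjusted p = 0.0393). Lum lost its call without any one of controls 2, 4, 5 and 6 and Rspo2-AAV 5, 6 and 7 (adjusted p of 0.055 to 0.078). Pdgfra lost it without any one of controls 2 to 6 and Rspo2-AAV 4 to 7 (adjusted p of 0.059 to 0.0946). Of 8 tested portal fibroblast genes, 1 was higher and 0 lower (median 0.25). That gene was Gas6, a ligand of TAM receptors that several liver cell types make, at 34.8 ± 8.98 FPKM in Rspo2-AAV and 15.9 ± 3.24 FPKM in control livers (SD, n = 6 per group; log2 change 1.09 ± 0.18, limma, adjusted p = 0.00602). Mesothelial and nerve genes had 0 of 5 tested genes each, because all were below the minimum mean.

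**Figure D4:**
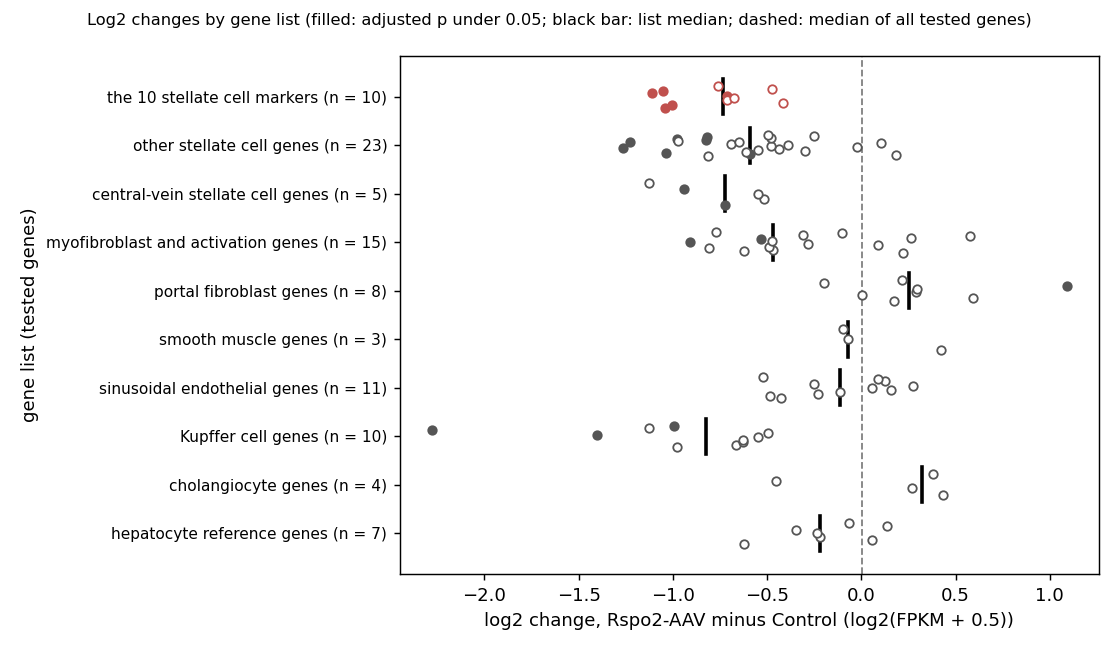
Log2 change (x axis, Rspo2-AAV minus Control on the log2(FPKM + 0.5) scale) of each tested gene in 10 gene lists (rows; number tested in brackets); filled points had a limma adjusted p under 0.05, black bars are list medians and the dashed line is the median of all tested genes. The medians are -0.74 for the 10 markers, -0.59 for other stellate cell genes, -0.82 for Kupffer cell genes and -0.11 for sinusoidal endothelial genes.

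The sinusoidal endothelium, another non-parenchymal cell type along the sinusoid, gave no calls. Of 11 tested endothelial genes, 0 were higher and 0 lower by limma (median log2 change -0.11), and the most abundant were Clec4g (-0.48 ± 0.17, adjusted p = 0.124) and Oit3 (-0.25 ± 0.22, adjusted p = 0.55). Their summed level was 60.7 to 117 FPKM in Rspo2-AAV and 70.2 to 126 FPKM in control livers. The count was also 0 among numbers 4 to 7. With 2.65% of all tested genes called lower, 0 calls among 11 genes cannot tell this list from the background. Of the 11 changes, 6 were negative and the others positive. Wnt2 was at -0.52 ± 0.19 (adjusted p = 0.125) and Bmp2 at -0.42 ± 0.25 (adjusted p = 0.353), both named after their values were seen. Among Kupffer cell genes, which mark the resident macrophages, 3 of 10 were called lower and 0 higher (median -0.82), with a summed level of 419 to 791 FPKM in Rspo2-AAV and 614 to 1287 FPKM in control livers. Marco, a scavenger receptor, fell by 2.28 ± 0.42 on the log2 scale (limma, adjusted p = 0.00864), Clec4f by 1.40 ± 0.30 (0.0177) and Vsig4 by 1.00 ± 0.22 (0.0245). The count was 1 without Rspo2-AAV 6, where Clec4f and Vsig4 had adjusted p of 0.0501 and 0.0629, and 5 without Rspo2-AAV 1. Vsig4 also lost its call without any one of controls 2 and 4 and Rspo2-AAV 4, 5 and 7 (adjusted p from 0.051).

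Cholangiocyte genes gave 0 higher and 0 lower of 4 tested (median log2 change 0.32), and Spp1 and Sox9 had changes of 0.38 ± 0.20 and -0.45 ± 0.15. Hepatocyte reference genes gave 0 higher and 0 lower of 7 (median -0.22), with Alb at -0.62 ± 0.26 (limma, adjusted p = 0.184) and Apoa1 at 0.05 ± 0.31 (adjusted p = 0.943). Pancreatic acinar genes gave 0 calls of 13 (1 higher without Rspo2-AAV 1 or 2), with a summed level of 4.09 to 51450 FPKM in Rspo2-AAV and 4.34 to 16.0 FPKM in control livers, and Ctrb1 and Try5 were the most abundant (log2 changes of 6.32 ± 2.15 and 5.56 ± 1.96). All 10 stellate markers kept a negative change without Rspo2-AAV 4 and 5, with a median of -0.77, while Ctrb1 was still at 129 and 11.6 FPKM in Rspo2-AAV 6 and 7. The part of RNA from other cell types in these results was otherwise not tested.

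The partners of the markers were mostly not called. In the HGF axis, 1 of 6 tested genes was lower and 0 higher: Hgfac, the protease that activates HGF, at 39.6 ± 7.65 and 58.55 ± 7.83 FPKM in Rspo2-AAV and control livers (SD, n = 6 per group; log2 change -0.57 ± 0.14, limma, adjusted p = 0.033). The list had 2 lower without control 1, and Hgfac lost its call without any one of controls 4 to 6 and Rspo2-AAV 1, 4, 5, 6 and 7 (adjusted p of 0.052 to 0.0795). In the PDGF axis only Pdgfra, given above, was called of 5, and 1 gene was higher without Rspo2-AAV 1. Of the reelin receptors, Vldlr was higher at 1.89 ± 1.91 FPKM in Rspo2-AAV against 0.207 ± 0.145 FPKM in control livers (SD, n = 6 per group; log2 change 1.52 ± 0.34, limma, adjusted p = 0.0245, and 0.061 without control 2). Rspo2-AAV 1 stood far above the rest of its group at 5.72 FPKM, with the other 5 Rspo2-AAV libraries at 0.600 to 1.55 FPKM and the controls at 0.030 to 0.411 FPKM. Without Rspo2-AAV 1 the log2 change of Vldlr was 1.19 (adjusted p = 0.00655), and it was 0.92 among numbers 4 to 7 (adjusted p = 0.0297) and 2.54 among numbers 1 to 3 (adjusted p = 0.305). Vldlr was the only call among 2 tested genes of that axis, and Lrp8 was below the minimum mean.

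Of 8 lectin complement genes beside Colec11, all 8 had negative changes (median log2 change -0.36) and 1 was called lower: Masp2, a protease of the pathway (-0.35 ± 0.09, adjusted p = 0.0373). Masp2 lost its call without any one of controls 2, 4, 5 and 6 and Rspo2-AAV 1, 4, 5, 6 and 7 (adjusted p of 0.0572 to 0.0816), and the list had 2 lower without Rspo2-AAV 2. Of 10 tested genes of TGF-beta latency and the decorin family, Bgn and Lum were lower and 0 were higher (median -0.14), and the list had 1 call wherever Lum lost its own. Of 8 retinoid genes beside Lrat, 1 was lower and 1 higher (median -0.25). Bco1, which cleaves carotene into retinal, was at 1.08 ± 0.352 FPKM in Rspo2-AAV and 2.98 ± 0.807 FPKM in control livers (SD, n = 6 per group; log2 change -1.14 ± 0.19, limma, adjusted p = 0.00569), and the list had 3 lower without Rspo2-AAV 2. Dgat1, which can also esterify retinol, was called higher (0.50 ± 0.13, adjusted p = 0.0465) and lost that call without any one library other than control 1.

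The regions just before the start of the markers that were called lower are shown as description only, where a sequence was used. RefSeq promoter sequences of build GRCm38.p6 were held for 8 of the 10 markers, and those of Dcn and Pdgfrb were not used here. The sequences run 5′ to 3′ on the strand of the gene, end at the start site or at the edge of the annotated gene, and have CpG dinucleotides in capitals.
Lrat, chr3:82903975-82904224, minus strand: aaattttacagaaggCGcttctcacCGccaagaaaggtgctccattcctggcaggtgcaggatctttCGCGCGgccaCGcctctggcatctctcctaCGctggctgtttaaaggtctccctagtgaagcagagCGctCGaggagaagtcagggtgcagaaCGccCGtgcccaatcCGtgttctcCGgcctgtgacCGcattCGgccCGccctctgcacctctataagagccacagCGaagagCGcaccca
Colec11, chr12:28623378-28623580, minus strand: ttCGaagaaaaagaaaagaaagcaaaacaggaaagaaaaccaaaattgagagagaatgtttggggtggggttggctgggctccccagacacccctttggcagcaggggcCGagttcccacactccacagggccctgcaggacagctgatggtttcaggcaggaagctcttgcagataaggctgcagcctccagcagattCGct
Ngfr, chr11:95587736-95587948, minus strand: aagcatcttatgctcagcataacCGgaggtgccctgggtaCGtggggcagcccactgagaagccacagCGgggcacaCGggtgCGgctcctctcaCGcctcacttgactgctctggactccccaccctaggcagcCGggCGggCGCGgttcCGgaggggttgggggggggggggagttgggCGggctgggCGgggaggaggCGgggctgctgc
Lhx2, chr2:38339031-38339280, plus strand: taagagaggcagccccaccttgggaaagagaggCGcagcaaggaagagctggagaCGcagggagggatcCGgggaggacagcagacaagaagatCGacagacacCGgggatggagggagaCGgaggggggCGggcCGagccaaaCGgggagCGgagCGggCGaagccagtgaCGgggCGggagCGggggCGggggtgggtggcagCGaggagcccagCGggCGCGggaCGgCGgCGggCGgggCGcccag
Over the 250 bases before the start, Lhx2, Lrat and Ngfr had 25, 18 and 16 CpG dinucleotides and Colec11 had 3, against a median of 6 over all 32851 RefSeq windows. The genes that fell thus include both CpG-rich and CpG-poor starts. A TCF/LEF core, CTTTG followed by AA, AT, TA or TT on either strand, was in 0 of the 10 windows of the markers and in 14.8% of all windows. The homeobox letters TAATTA, which read the same on both strands, were in 0 of the 10 windows and in 4.84% of all windows. The absence of a match says only that these letters are not in these windows.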

How the data were processed

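The deposited values are FPKM that the authors made, with 1 column per library. The build GRCm38 (mm10) and the tools featureCounts 1.5.0-p3, HISAT2 2.0.5 and DESeq2 1.20.0 are named per the submitters' processing notes, in no stated role or order. Per the labels' protocols, messenger RNA was selected on poly-T beads, and both directional and non-directional libraries are named, so strand use is not given in the sources used here. Exons of 4 markers overlap another GENCODE M21 gene by at most 6.74% of their exon bases (Reln, Des, Hgf and Ecm1), and those genes had at most 0.38 FPKM in any library. Reads were recovered with the deposited gene lengths, and 100% of the positive FPKM values corresponded to a whole number to within 0.01 reads. Recovered reads have no molecular identifiers.

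limma 3.58.1 in R 4.3.3 (lmFit, eBayes with trend) was fitted on log2(FPKM + 0.5) over all 12 libraries, without a block, for the 13447 genes averaging 0.5 FPKM or more. Adjusted p-values are Benjamini-Hochberg over all tested genes. The steps were tested on simulated data. All 10 markers passed the filter, so the exact permutation test planned for those below it was not needed. The markers and the gene lists, from knowledge of liver cell types, were chosen with earlier results of these data known. From each list the text names up to 4 called genes by smallest p, or the 2 with the highest mean where none was called, and otherwise says that a gene was named after its values were seen. The alternatives, 25 in all, covered pseudocount, filter, TPM scaling, limma-voom, pairing, library numbers, libraries that stand apart and each library left out. Same-numbered libraries of the 2 groups were not treated as pairs. One of the gene lists is not reported here.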

Additional observations from a re-analysis of the deposited data

Results flagged for a closer look

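In 3 of the 20 groups of 6 values (10 genes in 2 groups), 1 library was far from the rest by Dixon's criterion for 6 samples, where chance gives about 1 in 20. Ecm1 was at 51.3 FPKM in Rspo2-AAV 1, with the other 5 Rspo2-AAV libraries at 26.8 to 30.1 FPKM, and at 83.8 FPKM in control 3, with the other 5 controls at 41.0 to 52.8 FPKM. These are the 2 libraries with the most Xist. Des was at 2.89 FPKM in control 1, with 144 reads, above the other controls.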

How the results depend on the processing

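All 10 markers kept a negative log2 change under all 25 alternatives, except that Lhx2 was not tested at a minimum mean of 1 FPKM; 0 were called higher under any. The number called lower was 3 with TPM scaling, 3 without Rspo2-AAV 4 and 5, 8 among numbers 4 to 7 and 0 among numbers 1 to 3. It ran from 5 to 8 when 1 library was left out, with 8 without control 1. TPM scaling lost Lrat and Lhx2 (adjusted p = 0.0685 and 0.0749). Of all tested genes, against 343 higher and 356 lower, 195 and 216 were called with no filter, 197 and 183 with TPM scaling, 853 and 931 among numbers 4 to 7, 0 and 0 among numbers 1 to 3 (955 at an unadjusted p under 0.05), 807 and 908 among the 9 libraries under 1 FPKM of Xist, and 117 and 120 when Rspo2-AAV 4 and 5 were left out. Leaving out 1 library gave 162 to 421 higher and 170 to 492 lower. The cause of these shifts was not tested. Same-numbered libraries had correlated deviations of -0.25 to 0.16, and 1 of 5 matched best with its own number, so the numbers were not taken as pairs. With the replicate block over the 5 shared numbers, 2 markers were lower (Dcn and Colec11), and 145 genes were higher and 152 lower. Without the block the same 10 libraries gave 5 markers, a fit added after seeing the data. Low read numbers, 20 to 118 per library for Lhx2 and 20 to 184 for Ngfr, limit the precision of those genes.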

Other observations

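After its values were seen, Ecm1 was set beside Itgb3 and Igfbp3, 2 genes of the portal stellate cell list, in the libraries with Xist. Itgb3, an integrin subunit, was at 4.41 FPKM in Rspo2-AAV 1, 1.69 in Rspo2-AAV 2 and 4.26 in control 3. It was at 0.703 to 1.08 FPKM in the other Rspo2-AAV libraries and at 0.601 to 1.2012 FPKM in the other controls. Igfbp3, which binds insulin-like growth factors, was at 17.1, 9.19 and 15.6 FPKM in the same 3 libraries. It was at 5.07 to 5.84 FPKM in the other Rspo2-AAV libraries and at 5.55 to 12.2 FPKM in the other controls. Igfbp3 was called lower among the 9 libraries without Xist (log2 change -0.72, limma, adjusted p = 0.0349), which hold no Rspo2-AAV library numbered under 4. The part of Xist status, or of the library numbers that go with it, was not tested.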
